A study of Mus musculus with 4 samples.

Results

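The genes described here build the DNA replication machinery: 51 genes for marking and licensing origins, unwinding DNA, copying it and supplying its nucleotides. They were chosen by name, but with earlier results of these data known, among them the group's tendency to be higher in spleen. The platform annotation paired 50 of the 51 genes with at least 1 probe set of their own. Chaf1a, the large subunit of chromatin assembly factor CAF-1, had none under its symbol or synonyms and was not analysed here. Values are probe set intensities, read in pairs below as blood against spleen of the same mouse. All 50 were bright enough to be tested, among 11614 tested genes of the 18193 genes on the arrays. They were read on 4 Affymetrix arrays of GFP-positive leukemic blasts, sorted from peripheral blood and from spleen of 2 mice, so that each tissue has 2 arrays. The leukemia is a murine M7 (megakaryoblastic) type, designated T6(6) in the labels for both mice. It grew from fetal progenitors with mutant Gata1 (Gata1s) after retroviral insertional mutagenesis, and all 4 arrays share that background. The virus carried the GFP reporter used for the sort. The blasts were primary and untreated, and the strain, sex and age of the mice are not given in the sources used here. Both animals carry 1 leukemia designation, so the spread between them need not stand for independent leukemias.

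A cell copies its genome once per division. Before S phase the origin recognition complex, with Cdc6 and Cdt1, loads rings of the Mcm2 to Mcm7 helicase onto DNA, and geminin blocks further loading once S phase has begun. Cdc45 and the GINS complex then switch the helicase on, primase and polymerase alpha start each strand, polymerases delta and epsilon extend it behind the PCNA clamp, and ribonucleotide reductase, thymidylate synthase and thymidine kinase provide the deoxynucleotides. Transcription of many of these genes peaks as cells enter S phase and is driven by E2F factors, while genes of mitosis carry a different promoter element, the cell cycle genes homology region (CHR).

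The promoters of both kinds of gene were searched for these elements. RefSeq windows of 300 bases, from 250 bases before to 50 after an annotated start (GRCm38.p6), matched 41 of the 51 genes with 49 windows. The E2F words searched on both strands were TTTCCCGC, TTTCGCGC, TTTGCCGC and TTTGGCGC, and words of opposite strands can overlap. At least 1 of them was in 15 of the 49 windows (30.6%), against 460 of 11900 windows of tested genes (3.87%) and 744 of all 32851 windows (2.26%). Windows of 1 gene can overlap, and counted by gene it was 15 of 41 (36.6%) against 435 of 9406 tested genes (4.62%) and 704 of all 27025 (2.61%). The CHR words, TTTGAA and TTTAAA on both strands, were in 10 of the 49 windows (20.4%), in 19.7% of windows of tested genes and in 27.6% of all windows. In 29 windows of a list of mitosis genes the order was the other way, with CHR words in 24 (82.8%) and E2F words in 1 (3.45%). The CCAAT word was in 28 of the 49 windows (57.1%), in 75.9% of the mitosis windows, in 37.2% of windows of tested genes and in 37.4% of all windows. These are matches of letters and not measured binding sites.

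The 250 bases upstream of the start are shown for 4 genes whose values are described further on, with the E2F words in capitals. Cdc6 is shown because it had the largest tissue difference of the genes with such a word, Mcm5 and Mcm6 because their words overlap on opposite strands, and Orc1 because it carries a word and was not higher in spleen. They lie at chr11:98907901-98908150 (plus strand), chr8:75109259-75109508 (plus), chr1:128359706-128359955 (minus) and chr4:108579204-108579453 (plus).
Cdc6: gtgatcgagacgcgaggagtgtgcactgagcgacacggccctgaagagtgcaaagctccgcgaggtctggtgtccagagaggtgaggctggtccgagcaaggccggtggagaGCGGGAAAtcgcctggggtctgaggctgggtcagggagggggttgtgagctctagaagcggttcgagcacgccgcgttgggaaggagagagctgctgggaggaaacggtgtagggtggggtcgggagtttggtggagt
Mcm5: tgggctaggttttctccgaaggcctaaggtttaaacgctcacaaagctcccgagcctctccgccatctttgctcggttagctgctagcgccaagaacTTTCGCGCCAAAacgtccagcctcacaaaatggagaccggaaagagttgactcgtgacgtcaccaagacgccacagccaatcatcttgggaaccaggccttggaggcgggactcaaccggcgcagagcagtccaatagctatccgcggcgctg
Mcm6: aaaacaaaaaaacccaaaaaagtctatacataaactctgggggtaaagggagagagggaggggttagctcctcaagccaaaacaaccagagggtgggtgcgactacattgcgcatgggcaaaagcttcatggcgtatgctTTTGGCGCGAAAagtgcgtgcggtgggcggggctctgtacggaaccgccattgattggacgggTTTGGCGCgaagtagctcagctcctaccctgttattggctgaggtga
Orc1: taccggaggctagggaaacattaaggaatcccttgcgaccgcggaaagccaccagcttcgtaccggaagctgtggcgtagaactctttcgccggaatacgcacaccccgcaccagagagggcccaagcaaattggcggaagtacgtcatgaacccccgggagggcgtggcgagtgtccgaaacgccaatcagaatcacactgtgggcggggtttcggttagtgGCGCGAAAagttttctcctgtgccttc
The single word of Cdc6 begins 138 bases before the start, and that of Orc1 27 bases before it. Mcm5 has words that begin 153 and 149 bases before the start, and Mcm6 has 3, at 110, 106 and 47 bases.

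**Figure D1:**
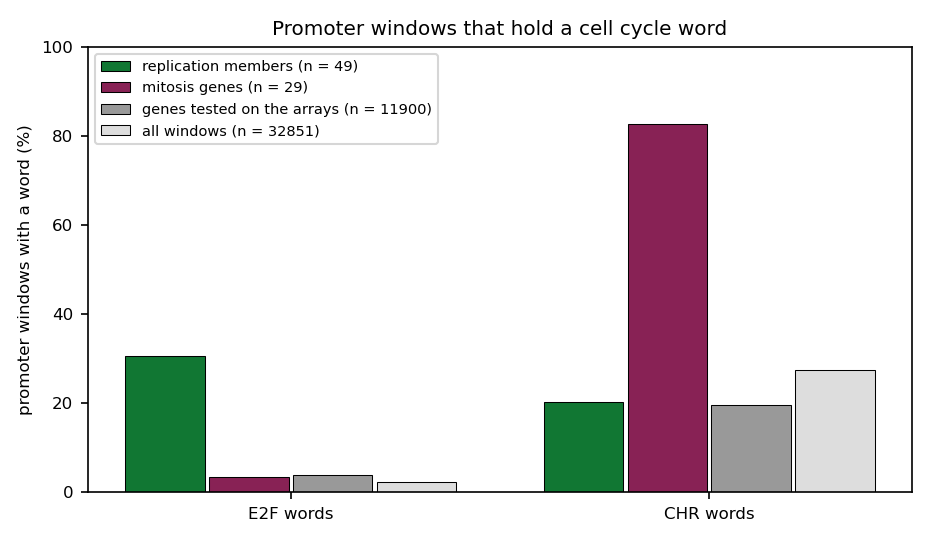
Share of promoter windows (percent, bars) that hold at least 1 E2F word or CHR word, for the replication genes, the mitosis genes, the genes tested on the arrays and all windows. E2F words were in 30.6% of the replication windows and 3.45% of the mitosis windows, and CHR words in 20.4% and 82.8%.

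The first question was whether these genes differed between blasts of the spleen and of the blood. Most had the higher value in spleen, with differences from -0.14 to 0.64: 43 of the 50 had the higher value in spleen for each mouse (86.0%), where 38.5% of all tested genes were. Values were compared as log2(intensity + 16), with values below 0 set to 0. The median difference of spleen minus blood was 0.31 on this scale, or 1.24-fold, with 0.35 in mouse 1 and 0.23 in mouse 2. Over all tested genes it was 0.03, with 0.07 and 0.0065 in the mice. Both spleen arrays lay above both blood arrays for 39 of the 50 genes, against 27.5% of all tested genes, and below them for 3. Standard errors ran from 0.11 to 0.20, and 29 of the 50 differences were larger than 2 SE. That bound is looser here than an unadjusted limma p under 0.05, and the share of all tested genes beyond it was not counted. With limma and Benjamini-Hochberg adjustment over all 11614 genes at a threshold of 0.05, 0 of the 50 were called, as were 0 of all genes (0.0%). The smallest adjusted p was 0.168 among the 50 and 0.140 among all genes. At an unadjusted p under 0.05 there were 23 of the 50, every one higher in spleen, where 8.12% of all tested genes were higher at that level. Without the blood array of mouse 1 the median fell to 0.20 and that count to 9, and without the spleen array of mouse 2 the count was 11. In a mixture of cells, fewer cells in S phase and less of these RNAs per cell cannot be told apart.

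**Figure D2:**
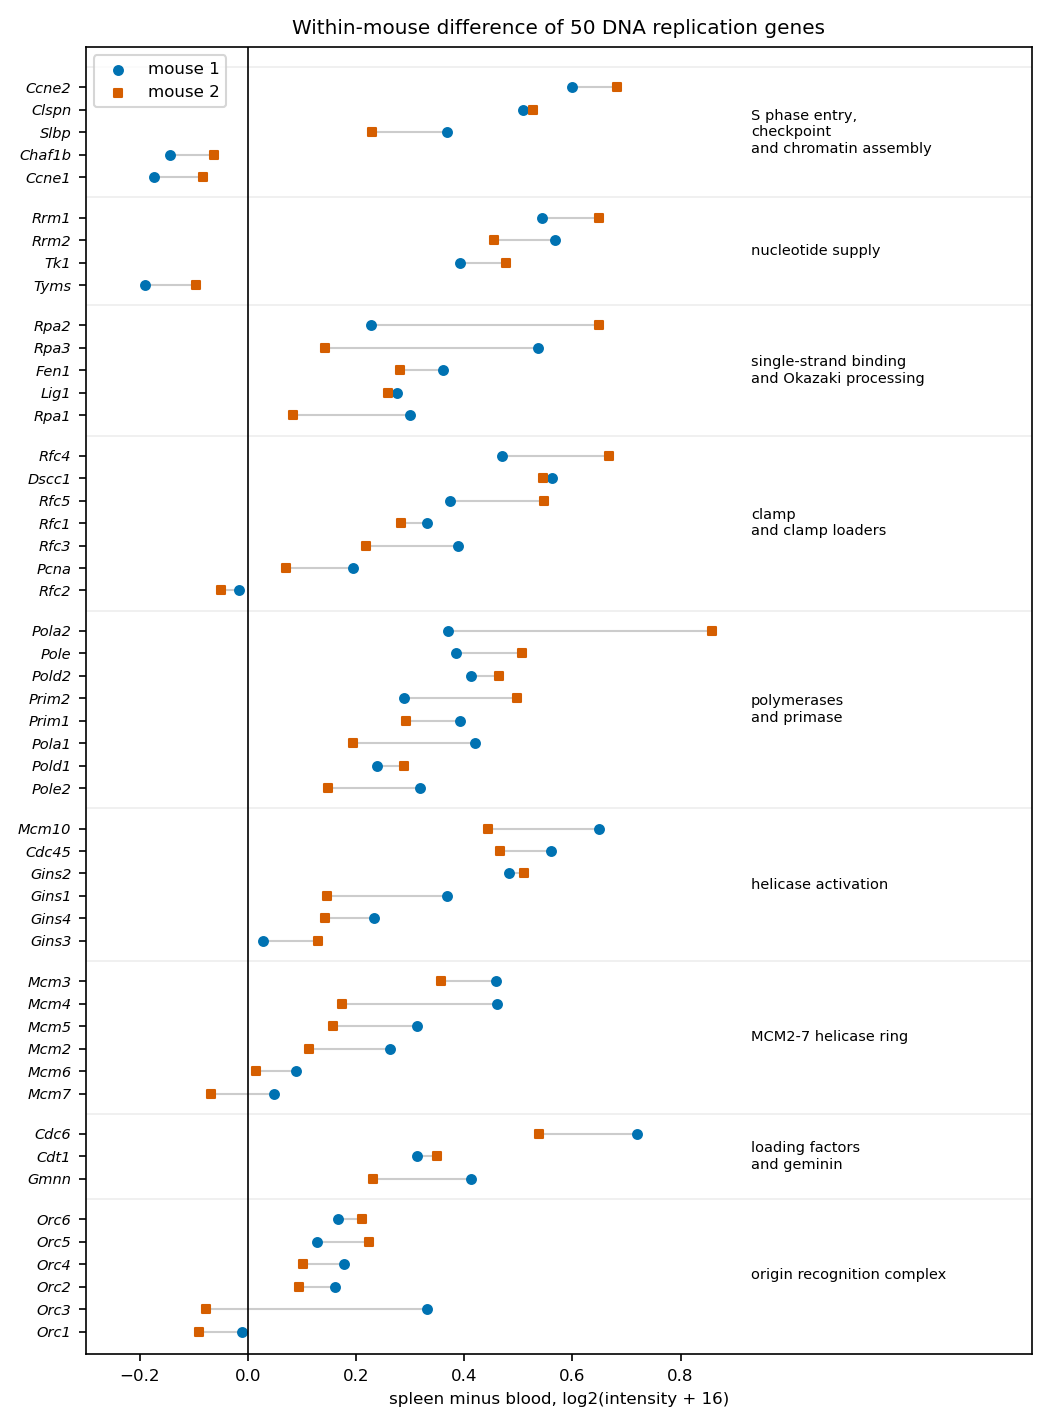
Spleen minus blood on the log2(intensity + 16) scale (horizontal axis) for 50 genes grouped by role, with a circle for mouse 1, a square for mouse 2 and a grey line joining them. Most points lie to the right of 0 in both mice, and the origin recognition genes lie nearest to 0.

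Among the 3 main roles, the nucleotide genes had the largest median and the licensing genes the smallest. The 21 genes of licensing and the helicase had a median of 0.19, with 0.31 in mouse 1 and 0.16 in mouse 2, and 18 were higher in spleen in both mice. The 20 genes of polymerases and the fork had a median of 0.33, with 0.37 and 0.29, and 19 were higher in both. The 4 genes of nucleotide supply had a median of 0.47, with 0.47 in each mouse, and 3 were higher in both. Differences between the roles were not tested, since genes are not replicates. Probe sets differ in brightness, so levels are given gene by gene and not ranked.

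The origin recognition complex, which marks where replication can start, differed least. Mean intensities of its 6 genes over the 4 arrays ran from 195 for Orc1 to 850 for Orc3, and the median difference was 0.13. By limma 0 of 6 had an unadjusted p under 0.05, against 1443 of all 11614 tested genes in either direction. Orc6 read 678 in blood against 763 in spleen for mouse 1, and 684 against 795 for mouse 2. Its difference was 0.19 ± 0.11 (SE, 2 arrays per tissue; adjusted p = 0.53), the largest of the 6. Orc2, Orc4 and Orc5 were also slightly higher in spleen in both mice, by 0.13, 0.14 and 0.18. For Orc4 this held on the main probe set, and the mean of its probe sets was 0.017. Its next brightest probe set gave 0.05 in mouse 1 and -0.32 in mouse 2. Orc1, the subunit whose level changes with the cell cycle, read 198 against 196 for mouse 1 and 198 against 185 for mouse 2. Its difference was -0.05 ± 0.11, and 0.0099 when its probe sets were averaged. On this main probe set its spleen arrays lay below its blood arrays, but by less than the SE. The other Orc1 probe set, nearly as bright, gave 0.28 in mouse 1 and -0.14 in mouse 2. On its main probe set Orc3 went opposite ways, reading 765 against 966 for mouse 1 but 857 against 811 for mouse 2. Its other probe sets gave 0.05 and -0.02 in mouse 1 and 0.36 and 0.16 in mouse 2.

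The loading factors stood further apart between the tissues than the complex they join. Cdc6, the ATPase that recruits the helicase to origins, read 349 in blood against 585 in spleen for mouse 1, and 369 against 543 for mouse 2. Both spleen values were above both blood values, by 0.63 ± 0.11 (limma adjusted p = 0.168), which was the smallest adjusted p of the 50 genes in the main fit. With mouse as a block in limma, Ccne2 had a smaller adjusted p (0.178 against 0.184 for Cdc6). With a trended prior in limma, Rrm1 did (0.070 against 0.104 for Cdc6). Cdt1, the partner of Cdc6 in loading, read 1497 against 1864 for mouse 1 and 1610 against 2056 for mouse 2, a difference of 0.33 ± 0.12. Gmnn encodes geminin, the inhibitor of Cdt1, and read 982 against 1313 for mouse 1 and 1131 against 1330 for mouse 2. Its difference, 0.32 ± 0.12, was close to that of its target.

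Genes of the helicase ring were bright, from a mean intensity of 2323 for Mcm4 to 7054 for Mcm7, and 5 of 6 had the higher value in spleen for each mouse, with a median difference of 0.21. Mcm3 read 1857 in blood against 2558 in spleen for mouse 1, and 2157 against 2768 for mouse 2. Its tissues did not overlap, at 0.41 ± 0.13 (limma adjusted p = 0.33), and it was the one ring gene with an unadjusted p under 0.05. Mcm2, Mcm4 and Mcm5 were higher by 0.19, 0.32 and 0.23. Mcm6 differed by 0.05 ± 0.12, reading 5010 against 5329 for mouse 1 and 5564 against 5622 for mouse 2, and by -0.02 without the blood array of mouse 1. Mcm7 read 6783 against 7010 for mouse 1 and 7382 against 7042 for mouse 2. Its difference of -0.01 ± 0.11 was 0.033 with centred arrays, so it has no settled direction. On their main probe sets all 6 ring genes had a larger spleen minus blood difference in mouse 1 than in mouse 2. So did 7037 of all 11614 tested genes. Another probe set above the filter had the larger difference in mouse 2 for Mcm2 (0.30 and 0.44), Mcm4 (0.45 and 0.67) and Mcm6 (0.44 and 0.46). The dimmest of Mcm3 did too (-0.22 and 0.04), while those of Mcm5 and Mcm7 kept the order.

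Genes that turn the loaded ring into a moving helicase had the higher value in spleen for each mouse in 6 of 6 cases, with a median difference of 0.38. Mcm10, which helps origin firing, read 497 in blood against 788 in spleen for mouse 1, and 557 against 764 for mouse 2. Cdc45, a subunit of the active helicase, read 284 against 426 for mouse 1 and 331 against 464 for mouse 2. Both were higher by at least 0.44 in each mouse, with means of 0.55 ± 0.12 and 0.51 ± 0.13. The GINS genes, whose 4 products act as 1 complex, spread widely. Gins2 was higher by 0.50 ± 0.11, Gins1 by 0.26 ± 0.14 and Gins4 by 0.19 ± 0.11. Gins3 was at 0.08 ± 0.12 and at -0.02 without the blood array of mouse 2.

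All 8 polymerase and primase genes had the higher value in spleen for each mouse, and their median difference was 0.37. Pola2, the B subunit of polymerase alpha, read 276 in blood against 362 in spleen for mouse 1, and 267 against 497 for mouse 2. Its tissues did not overlap, but its difference of 0.61 ± 0.17 was 0.86 in mouse 2 against 0.37 in mouse 1. Pole, the catalytic subunit of the leading strand polymerase, read 933 against 1224 for mouse 1 and 1035 against 1478 for mouse 2, a difference of 0.45 ± 0.14. Pold2, the second subunit of polymerase delta, was higher by 0.44 ± 0.13 and the catalytic Pold1 by 0.26 ± 0.18. Pold1 was the only one of the 8 whose tissues overlapped, because blood of mouse 2 at 985 lay above spleen of mouse 1 at 929. Prim1 and Prim2, the primase subunits, were higher by 0.34 and 0.39, Pola1 by 0.31 and Pole2 by 0.23. The dimmest Prim2 probe set, also above the filter, was lower in spleen in both mice, at -0.22. Averaged over its probe sets, Pola1 stood at -0.18, because a dim probe set below 60 on every array went the other way.

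The clamp itself differed less than most of its loaders. Pcna, the ring that holds polymerases on DNA, was bright, reading 6208 in blood against 7102 in spleen for mouse 1 and 6670 against 7002 for mouse 2. Its spleen arrays were above its blood arrays by only 0.13 ± 0.11. Rfc4, a subunit of the clamp loader, read 535 against 748 for mouse 1 and 506 against 814 for mouse 2, a difference of 0.57 ± 0.12 (limma adjusted p = 0.192). Rfc5, Rfc1 and Rfc3 were higher by 0.46, 0.31 and 0.30. Rfc2 went with none of them, at -0.03 ± 0.12, and at 0.011 with centred arrays. Dscc1, part of the alternative loader that serves sister chromatid cohesion, read 166 against 252 for mouse 1 and 155 against 234 for mouse 2. It was higher by 0.55 ± 0.12, nearly the same in both mice.

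The 5 genes that coat single strands and finish the lagging strand all had the higher value in spleen for each mouse, with a median difference of 0.32. On their main probe sets the subunits of replication protein A differed in which mouse moved more. Rpa2 was higher by 0.23 in mouse 1 and 0.65 in mouse 2, and Rpa3 by 0.54 and 0.14. Rpa1 was higher by 0.30 and 0.08, but by 0.40 and 0.52 on its other probe set. The other Rpa2 probe set gave 0.51 and 0.81. Fen1, the nuclease that trims Okazaki fragments, read 2235 against 2876 for mouse 1 and 2559 against 3114 for mouse 2, a difference of 0.32 ± 0.13. Lig1, the ligase that seals them, read 1380 against 1675 for mouse 1 and 1807 against 2165 for mouse 2, a difference of 0.27 ± 0.19. Its tissues overlapped, because the mice differed by more than the tissues did.

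Nucleotide supply genes held some of the largest differences. Rrm1, the large subunit of ribonucleotide reductase, read 1529 in blood against 2238 in spleen for mouse 1, and 1606 against 2530 for mouse 2. The difference was 0.60 ± 0.12 (limma adjusted p = 0.192), with clear separation of the tissues, and its second probe set gave 0.86. Rrm2, the small subunit that is made in S phase, read 1385 against 2062 for mouse 1 and 1707 against 2345 for mouse 2, a difference of 0.51 ± 0.15. Tk1, thymidine kinase of the salvage route, read 597 against 788 for mouse 1 and 626 against 879 for mouse 2, a difference of 0.44 ± 0.12. Tyms, thymidylate synthase, was the exception on its main probe set, reading 255 against 221 for mouse 1 and 179 against 167 for mouse 2. Its difference was -0.14 ± 0.20, its tissues overlapped, and its sign turned without the blood array of mouse 1 (0.09) and without the spleen array of mouse 2 (0.05). Its second probe set above the brightness filter stood at 0.34, those below it at 0.57 and -0.21, and the mean of its probe sets at 0.14.

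**Figure D3:**
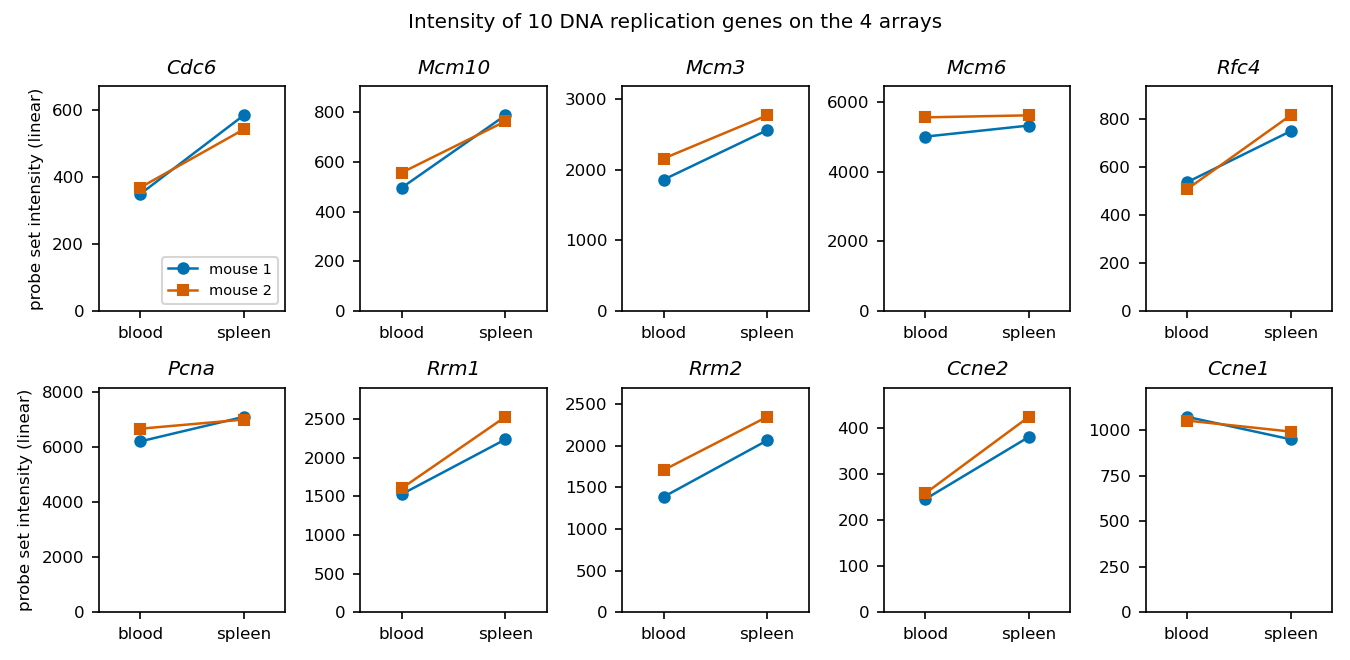
Probe set intensity (linear scale, vertical axes from 0) of 10 genes on the 4 arrays, with a line joining blood and spleen of each mouse (circles for mouse 1, squares for mouse 2). Cdc6, Mcm10, Mcm3, Rfc4, Rrm1, Rrm2 and Ccne2 are higher in spleen for each mouse, Mcm6 and Pcna differ little, and Ccne1 is slightly lower.

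The E cyclins, which activate Cdk2 at the start of S phase, did not read alike. Ccne2 read 245 in blood against 380 in spleen for mouse 1, and 258 against 424 for mouse 2, a difference of 0.64 ± 0.12 (limma adjusted p = 0.171). This was the largest of the 50 on the main probe sets, but Rrm1 was larger with probe sets averaged (0.71 against 0.64) and with an offset of 64 (0.58 against 0.56). Ccne1 read 1075 against 951 for mouse 1 and 1054 against 994 for mouse 2, so that both spleen arrays lay below both blood arrays. Its difference of -0.13 ± 0.11 became 0.017 when its probe sets were averaged. It rests on a probe set ending in _x_at, a type that can cross-react; the only other one, below the filter, read 112 against 98.8 for mouse 1 and 81.4 against 120.0 for mouse 2. Clspn, which carries the checkpoint signal of stalled forks, read 481 against 691 for mouse 1 and 458 against 666 for mouse 2. Its difference was 0.52 ± 0.11, but 0.13 on its other probe set above the filter and 0.32 with probe sets averaged. Slbp, the protein that binds the stem-loop of histone mRNAs, was higher by 0.30 ± 0.12. Chaf1b, a subunit of CAF-1, stood at -0.10 ± 0.11 on its brightest probe set and at 0.14 on its other one.

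Different probe sets of a gene read other stretches of its RNA on the same 4 arrays. The 50 genes had 109 probe sets, of which 91 reached the filter, and 77 of these were higher in spleen for each mouse, 6 lower and 8 opposite. Of all 18952 such probe sets on the arrays 39.9% were higher in both mice. Of the 41 that were not used as the main value, 34 were higher in both mice, 1 lower and 6 opposite, with a median of 0.29. The 3 probe sets of Rrm2 gave 0.51, 0.52 and 0.58, and the 4 brightest of Mcm3 gave 0.41, 0.36, 0.43 and 0.41, though its dimmest gave -0.09. Other genes were less uniform: the brightest Mcm6 probe set gave 0.05 and the next 0.45, and those of Mcm7 gave -0.01, 0.29, 0.27 and 0.10 in order of brightness. For Rfc2 they gave -0.03, 0.12 and 0.14, and for Rpa1 0.19 and 0.46. In each of Mcm6, Mcm7, Rfc2 and Rpa1, picked after their values were seen, the brightest probe set gave the smallest difference among those above the filter. The 6 genes with a mean intensity of 3000 or more (Mcm5, Mcm6, Mcm7, Pcna, Rfc2 and Rpa1) had a median of 0.09. Among all tested genes of that brightness the median was 0.04.

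Genes with and without an E2F word had similar medians, and their difference was not tested. Of the 40 genes with both a window and a test, the 15 with a word had a median of 0.26 and the 25 without one a median of 0.32. On main probe sets, Cdc6 (0.63) and Clspn (0.52) were among the former, and so were Mcm6 (0.05), Mcm7 (-0.01), Orc1 (-0.05) and Gins3 (0.08).

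A second list held 46 further genes of replication, and 40 were tested. In spleen 34 of the 40 were higher in both mice (85.0%), 1 was lower in both and 5 went opposite ways, with a median of 0.25 and 0 called. The leading genes were Atad5, which unloads PCNA, at 0.59 ± 0.11, the deubiquitinase Usp1 at 0.59 ± 0.11, the origin firing factor Ticrr at 0.58 ± 0.11 and the histone chaperone Asf1b at 0.48 ± 0.15. The one gene lower in both was Samhd1, a phosphohydrolase that breaks down deoxynucleotides. It read 4417 in blood against 4073 in spleen for mouse 1 and 4556 against 3672 for mouse 2, a difference of -0.21 ± 0.12. Rrm2b, the reductase subunit used outside S phase, stood at 0.10 in mouse 1 and -0.21 in mouse 2, while Rrm2 was higher in both.

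Mitosis genes, read on the same arrays, had larger differences than the replication genes. Of 31 listed genes 30 were tested, all 30 had the higher value in spleen for each mouse, and their median was 0.76, with 0.69 in mouse 1 and 0.77 in mouse 2. The leading ones were the checkpoint kinase Bub1 at 1.05 ± 0.14, the spindle protein Nusap1 at 1.17 ± 0.13 and the kinase Aurka at 1.17 ± 0.15. On their main probe sets the replication genes reached at most 0.64. The larger difference was in mouse 1 for 30 of the 50 replication genes, a share close to that of all tested genes (7037 of 11614), and for 6 of the 30 mitosis genes. The difference between the lists was not tested.

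**Figure D4:**
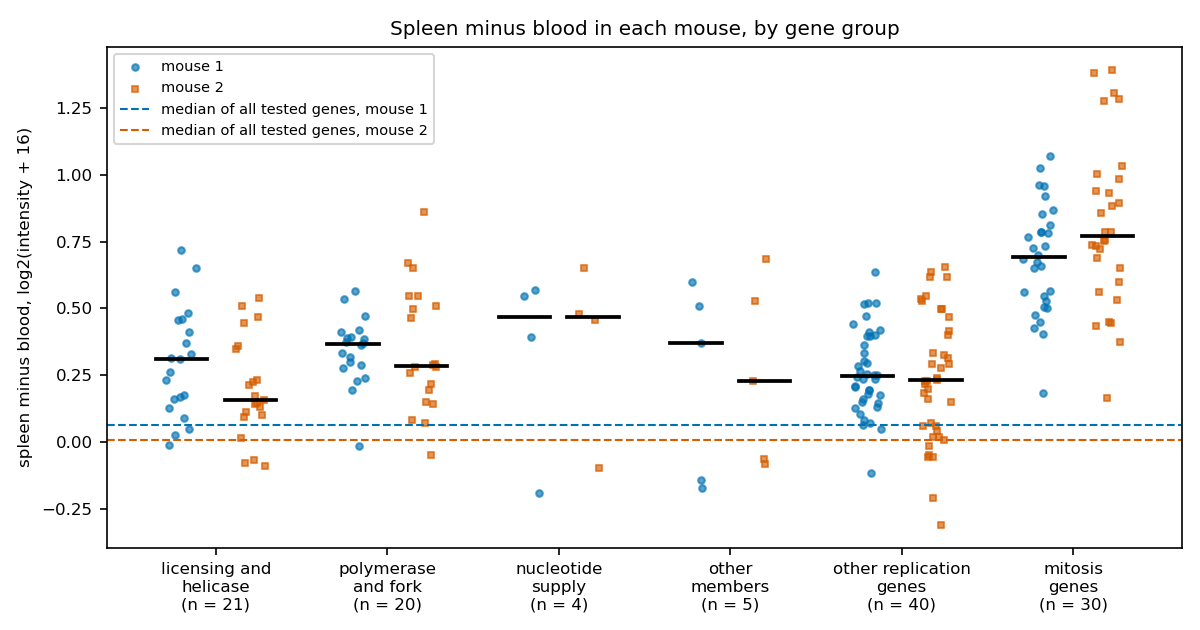
Spleen minus blood on the log2(intensity + 16) scale for single genes (circles for mouse 1, squares for mouse 2) in each group, with black bars at the medians and dashed lines at the medians of all tested genes. The replication groups lie between those lines and the mitosis genes, whose medians are 0.69 and 0.77.

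The second comparison set the mice against each other within a tissue, with 1 array per side and no test. In blood the 50 genes were higher in mouse 2 by a median of 0.10, and in spleen by 0.06. They were higher in mouse 2 in both tissues for 23 genes and lower in both for 8, against 3185 and 3566 of the 11614 tested genes. Lig1 was higher in mouse 2 by 0.38 in blood and 0.37 in spleen, and Pold1 by 0.32 and 0.37. Tyms was lower in mouse 2, at -0.47 and -0.38. For these 3 genes the difference between the mice was larger than that between the tissues.

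Granulocyte and macrophage markers differed between the tissues too, mostly in mouse 2. Of 7 listed megakaryocyte genes 6 were measured and 5 reached the filter. Pf4, the platelet factor, was at 8074 ± 534 (SD, n = 4 arrays) and Itga2b at 4496 ± 353. Itgb3 was below the filter, reading 15.9 against 39.7 for mouse 1 and -4.17 against 122.6 for mouse 2. Gp1bb, a subunit of the platelet von Willebrand factor receptor, read 479 against 889 and 353 against 863. Its difference of 1.06 ± 0.16 was larger than that of any replication gene. The other tested markers differed less, Pf4 by 0.16, Itga2b by 0.07, Gp9 by 0.18 and Gp6 by 0.34. The median of the 5 was 0.18. Of 11 granulocyte markers 9 reached the filter. The summed intensity of the 11 was 7002 and 17316 in blood and 4374 and 1328 in spleen of mice 1 and 2. The 7 macrophage markers summed to 1124 and 2971 in blood and 1606 and 795 in spleen. For 8 measured markers of T and NK cells the sums were 6474 and 8951 in blood and 7457 and 4778 in spleen. Much of that change was in Gzma alone, which read 1338 and 3486 in blood and 2757 and 171 in spleen. Nkg7, the brightest of the 8, ran only from 3556 to 4159. The 4 measured B cell markers summed to between 378 and 468 on all arrays, and of these only Pax5 reached the filter. Erythroid markers, 4 measured, summed to between 2911 and 3385. Of them Klf1 and Epor reached the filter, at mean intensities of 1943 and 1033. Hba-a1 and Alas2 lay below it, at 84.6 and 25.0. No listed marker was at 0 on all 4 arrays, though C1qa, a macrophage gene, was below 0 on 3. In mouse 1 the median marker difference was -0.31 for granulocytes and 0.50 for macrophages, and in mouse 2 it was -3.22 and -1.41. The medians of the replication genes were 0.35 and 0.23 in the same mice. The part of such cells in the tissue difference was not tested.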

How the data were processed

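RNA of sorted blasts was read on 4 arrays, 2 of blood and 2 of spleen, per the labels. The deposited file holds a linear intensity for each probe set, judged from its range. The sources used here do not name how the authors summarised, background-corrected and scaled these intensities. Array medians lay between 103.7 and 110.6, and at most 2.17% of an array's values were below 0. Actin 3' to 5' ratios lay between 1.20 and 1.26. The number of arrays limits the precision. Depth in reads does not apply.

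Negative intensities were raised to 0 and log2 was taken after an offset of 16, which understates fold changes of dim genes. Probe sets paired with 1 gene (34945 of 45101; 932 had several) were named through Entrez identifiers with RefSeq names (GRCm38.p6). Each gene took its brightest probe set. Genes at or above the median probe set (intensity 106) were tested with limma 3.58.1 in R 4.3.3 (lmFit, eBayes, two-sided, tissue as sole term), adjusted by Benjamini-Hochberg over all tested genes, and the test was checked on simulated data. Errors are SEs of this fit.

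Members and lists were chosen with earlier results of these data known, and the group's tendency to be higher in spleen is among those results. Every member is named. Of the second replication list the leading 4 each way, and of the mitosis list the leading 3, ranked by the weaker of their within-mouse differences where both had one sign, are named (only 1 of the former was lower); Rrm2b was added after its values were seen. The labels give the animal of each array, so mouse number pairs them; over the tested genes the mouse 2 minus mouse 1 differences of the tissues had r = 0.10. Protein sequences were not used here, so the planned protein motifs were not searched. Alternatives were quantile normalization, centred arrays, offsets of 64 and 4, no filter and a stricter one, the mean of probe sets, a trended prior, mouse as a block and leaving out each array; leaving out cross-reacting probe sets and taking each mouse alone were chosen after seeing the data.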

Additional observations from a re-analysis of the deposited data

Results flagged for a closer look

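On their main probe sets Orc3 and Mcm7 had tissue differences of opposite direction in the mice. For Orc3 spleen minus blood was 0.33 in mouse 1 and -0.08 in mouse 2, so mouse 2 minus mouse 1 was -0.409. Its other probe sets, also above the filter, were larger in mouse 2 (0.05 and 0.36, -0.02 and 0.16). For Mcm7 spleen minus blood was 0.05 and -0.07, and mouse 2 minus mouse 1 was -0.115. The other Mcm7 probe sets gave 0.34 and 0.24, 0.28 and 0.26, and 0.24 and -0.04. With 1 array per tissue and mouse these differences were not tested.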

How the results depend on the processing

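The number of replication genes called was 0 under every setting run, with the replicate block by mouse as well, where 0 of all genes were called too. Over all genes the count was 45 with an intensity trend, and 0 to 20 when 1 array was left out, the 20 without the spleen array of mouse 1; the lone array left is then assumed to vary like the other tissue. The count of 43 genes higher in both mice was 39 of 46 tested genes when probe sets were averaged, 44 of 50 with centred arrays, and 45 and 43 in mouse 1 alone and mouse 2 alone. The median of all 50 ran from 0.20 to 0.40 when 1 array was left out, of licensing genes from 0.18 to 0.26, of polymerase genes from 0.28 to 0.42 and of nucleotide genes from 0.38 to 0.56. With quantile normalization the median of polymerase genes was 0.27 and of nucleotide genes 0.41. The nucleotide median, over only 4 genes, was nearly equal in the mice, though the single genes were not. It was 0.52 with centred arrays, 0.45 with an offset of 64 and 0.48 with an offset of 4. With the stricter filter it was 0.51 and with the mean of probe sets 0.54 (3 genes tested in each of these 2). Without probe sets ending in _x_at or _s_at it was 0.48. Of 640 single-gene values 16, of 9 genes, had the opposite sign. With probe sets averaged these were Mcm7 (0.16), Orc1 (0.0099), Pola1 (-0.18), Rfc2 (0.075), Ccne1 (0.017) and Chaf1b (0.016). With centred arrays they were Mcm7 (0.033) and Rfc2 (0.011), and without probe sets ending in _x_at or _s_at Mcm7 (0.29). A gene below the filter under a setting was not counted there. Left out in this way were Tyms, at 0.14 with probe sets averaged, and Ccne1, at 0.16 without probe sets ending in _x_at or _s_at. When 1 array was left out, Mcm6 ran from -0.024 without blood of mouse 1 to 0.13, Mcm7 from -0.071 to 0.051, Gins3 from -0.016 without blood of mouse 2 to 0.17, Rfc2 from -0.10 to 0.039 and Tyms from -0.38 to 0.093. The cause was not tested.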
